A study of Mus musculus with 24 samples.

Results

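Fragments of cytoplasmic ribosomal RNA were followed in small RNA libraries. These were made from extracellular vesicles (EVs), isolated from culture media, and from the mouse CD4+ T cells that had released them. The members were the features with biotype rRNA, leaving out mitochondrial rRNA, and this biotype already took in Rn18s-rs5, the 18S feature. They numbered 68 of the 4408 features in the count files, and all 68 passed the filter on low counts. They were classed as 1 18S feature, 2 5.8S features and 65 5S features, and only the 65 were aligned to a reference, the 5S copy Rn5s. No 28S feature was among them. Rn45s and Rn28s1 were looked up in a list of 11 rRNA-like loci outside the biotype, 8 of them in the files, and no values of these 2 are given here.

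Spleens and lymph nodes of wild-type C57BL/6 mice gave the T cells, which were grown in high-glucose DMEM, with RNA taken up in Trizol. There were 8 groups of 3 libraries, which were EVs and cells of 4 kinds of culture. In GW4869 cultures, cells were stimulated in the presence of GW4869, which inhibits neutral sphingomyelinase, a lipid-cleaving enzyme needed for the release of some vesicles. In DMSO cultures, cells were stimulated in the presence of DMSO, the solvent of that drug. Both kinds were stimulated for 3 days, and the labels give no drug or antibody dose for them. Stimulated cultures spent 3 days on plates coated with anti-CD3 at 2 µg/ml and anti-CD28 at 5 µg/ml. Resting cultures had been stimulated for 2 days and expanded for 1 day before 2 days of rest in medium with IL2. Resting cells had therefore also been activated, and they differed from stimulated cells in culture time, so these cannot be told apart from the stimulation. Nothing in the labels ties the 3 libraries of each group to animals or cultures of their own. A p-value therefore measures only how far these libraries spread, which may be technical. Less of an RNA in each cell and fewer cells that make it cannot be told apart in such bulk samples.

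The 18S rRNA is the RNA of the small ribosomal subunit, and 5.8S and 28S rRNA belong to the large one. RNA polymerase I makes these as a single precursor, in which the 5′ external transcribed spacer comes before 18S and is cut away and degraded in the nucleolus. The 5S rRNA, also of the large subunit, is transcribed apart from them by RNA polymerase III from a tandem array of genes, and it joins ribosomal proteins Rpl5 and Rpl11 before it enters the ribosome.

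The 5S copies differ in a few bases, and their counts could be told apart only through those. In GRCm38, 51 of the 65 5S features lay in 1 array on the minus strand of chromosome 8, from 123538786 to 123623745, with starts a median of 1697 bases apart. The other 14 were dispersed over 10 chromosomes. Of all 65, 32 had the same 119 bases as Rn5s, 7 array copies shared the substitutions G89T, A90T and G93C (with other changes in some), 12 array copies had other changes, and the dispersed copies had 4 to 28 edits. Positions count from 1 at the 5′ end of Rn5s, and the Rn5s base is given first. Of the copies named below, n-R5s115, n-R5s109 and Gm23647 were chosen after their values were seen. The copies n-R5s2 (chromosome X), n-R5s33 (chromosome 16), n-R5s71 (chromosome 11) and n-R5s193 (chromosome 4) are dispersed ones.

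The 18S feature belongs to a stretch of ribosomal DNA on chromosome 17, whose parts are shown because reads were counted for several overlapping genes there. The 18S sequence took chr17:39846353-39848201 in GENCODE M21, and the RefSeq interval of Rn18s-rs5 is shifted by 1 base. RefSeq lists Rn18s-rs5 as a pseudogene. Gm26917 (chr17:39843013-39846341, plus strand), annotated as a long non-coding gene, ended 11 bases before 18S, which is the place of the 5′ external transcribed spacer. Gm42418 covered 18S bases 606 to 1849 and 587 bases past its end. AY036118, on the opposite strand, covered 18S bases 761 to 1683, which is 49.9% of its length. Below are the end of Gm26917 and the start of 18S, both read on the plus strand, and no capitals are used.
Gm26917, last 60 bases: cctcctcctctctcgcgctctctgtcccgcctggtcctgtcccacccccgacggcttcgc
Rn18s-rs5, first 60 bases: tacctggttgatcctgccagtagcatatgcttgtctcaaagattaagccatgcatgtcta

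Library totals ran from 1290918 to 3231626 counts, and member counts from 4 (n-R5s197) to 184480 (Rn18s-rs5) in a library. The T cell label was checked against 10 T cell genes, of which Cd3e and Cd247 were in the files, with a summed level of 40.0 to 71.9 CPM in GW4869 EVs, against 40.5 to 53.6 CPM in GW4869 cells (counts per 1e6 after TMM scaling, the scale of every level here), 19.9 to 71.2 CPM in DMSO EVs, against 45.4 to 53.3 CPM in DMSO cells, and 72.9 to 94.8 CPM in resting EVs, against 75.6 to 95.6 CPM in resting cells. In stimulated EVs it was 61.7 to 102 CPM, against 63.6 to 69.1 CPM in stimulated cells. All 6 blood and T cell miRNAs were present, and their summed level ran from 32600 CPM in GW4869 EVs to 397000 CPM in resting cells. Of the B cell, myeloid, liver, muscle and stromal lists no member was in the files. No count in the files was under 4, so features with few reads may have been left out of them. Most of the T cell genes were missing too, so a missing marker cannot show that its cells were absent. Mir451a, the 1 of 5 erythroid markers in the files, stood at 9.68 to 95.9 CPM over the groups. Mir126a (platelet and endothelial) stood at 30.2 to 163 CPM, and Mir200c (epithelial) at 18.1 to 57.9 CPM. Where these markers were called in a comparison, most of their folds are given below. Those not given below are Mir126a, lower in stimulated than in resting EVs (log2 fold -0.89), and Mir200c, lower in DMSO than in stimulated EVs (-0.85). Their part in the results was not tested. The resting and stimulated libraries on one side and the DMSO and GW4869 libraries on the other may have been tabulated separately by the authors. Dancr, Pcdha11 and Pde2a each had 4 lines, pairing each of 2 values in the first libraries with each of 2 in the second. Flt3l and Pik3c2g had 1 value on one side, so they cannot tell. Mir1839, Mir1949, Mir3068, Mir677 and Rn7sk, also on several lines, did not show such pairing. The labels do not state separate tables.

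All rRNA members together took a larger share of the deposited counts in EVs than in cells of every culture, with no overlap of libraries. The share was 7.85%, 8.13% and 8.72% in GW4869 EVs, against 6.86%, 4.94% and 4.40% in GW4869 cells. It was 9.22%, 9.32% and 8.27% in DMSO EVs, against 3.79%, 5.24% and 4.80% in DMSO cells. Stimulated EVs held 7.30%, 7.45% and 7.53%, against 5.13%, 4.74% and 5.98% in stimulated cells. The resting libraries were far below all others, at 1.69%, 1.27% and 1.13% in EVs, against 0.383%, 0.452% and 0.527% in cells. These shares carry no test, since they are sums over the members.

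The makeup of these counts differed between EVs and cells. Of the member counts, 5S features took 17.3% to 38.0% in the 12 EV libraries, against 35.5% to 66.0% in the 12 cell libraries, and Rn18s-rs5 took 60.6% to 77.6% in EV libraries, against 31.8% to 62.1% in cell libraries. Within a library, the log2 ratio of Rn18s-rs5 to the summed 5S counts needs no scaling between libraries, and its own height also depends on the lengths of the features. This log2 ratio was 1.27, 1.59 and 1.79 in GW4869 EVs, against -0.45, -0.24 and 0.14 in GW4869 cells. It was 2.16, 1.34 and 1.79 in DMSO EVs, against -0.32, -1.05 and -0.96 in DMSO cells. It was 1.81, 1.91 and 1.78 in stimulated EVs, against 0.81, 0.41 and 0.35 in stimulated cells. In resting cultures it was 0.67, 1.45 and 1.85 in EVs, against -0.03, -0.29 and -0.52 in cells. In each of the 4 cultures all 3 EV libraries were above all 3 cell libraries. The differences of the means, EVs minus cells, were 1.73 in GW4869, 2.54 in DMSO, 1.31 in stimulated and 1.61 in resting cultures, on the log2 scale.

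**Figure D1:**
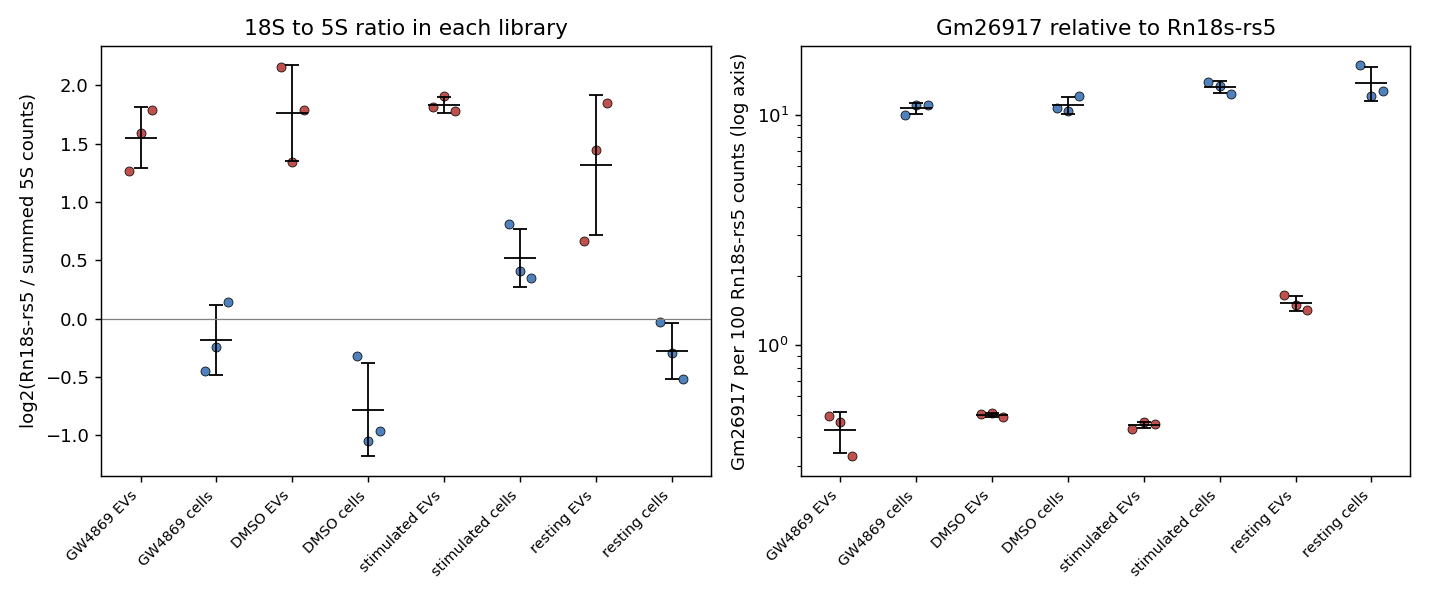
Left, log2 ratio of Rn18s-rs5 counts to summed 5S counts in each library; right, Gm26917 counts per 100 Rn18s-rs5 counts on a log axis. Points are libraries, and bars with whiskers are means ± SD (n = 3). EV libraries lie above their cells on the left (1.31 to 2.54 log2 units in the means) and below them on the right (group means 0.428 to 1.52 against 10.7 to 13.8).

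Rn18s-rs5, the small subunit rRNA, was higher in EVs than in cells of all 4 cultures. In resting cultures it stood at 16060, 13980 and 14770 CPM in EVs, against 3272, 3494 and 3655 CPM in cells. In DMSO cultures it stood at 49090, 59850 and 40720 CPM in EVs, against 19030, 19000 and 16510 CPM in cells. The groups did not overlap in either culture. The erythroid miRNA Mir451a was also higher in resting EVs, at 48.20, 95.87 and 80.62 CPM in EVs, against 31.41, 10.97 and 9.675 CPM in cells (log2 fold 2.11 ± 0.39, adjusted p = 8.06e-05, edgeR), and its part in the result was not tested. The Rn18s-rs5 log2 fold was 2.10 ± 0.17 (SE; adjusted p = 3.76e-10) in resting and 1.46 ± 0.17 (adjusted p = 5.94e-08) in DMSO cultures, in the quasi-likelihood test of edgeR. Its p-values were adjusted by Benjamini-Hochberg over 4408 features, and an adjusted p under 0.05 made a call, here and below.

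In stimulated and GW4869 cultures the Rn18s-rs5 difference was smaller. It stood at 37970, 41550 and 45720 CPM in stimulated EVs, against 31150, 29660 and 30010 CPM in stimulated cells. In GW4869 cultures the levels were 30840, 36770 and 39300 CPM in EVs, against 27860, 21640 and 23820 CPM in cells. Again the groups did not overlap. The log2 fold was 0.46 ± 0.17 (adjusted p = 0.0213) in stimulated and 0.54 ± 0.17 (adjusted p = 0.00548) in GW4869 cultures. The stimulated call was lost with RLE size factors (adjusted p = 0.108), with DESeq2 (adjusted p = 0.0684) and without stimulated cells replicate 2 (adjusted p = 0.0546) or stimulated EVs replicate 3 (adjusted p = 0.0774), and the GW4869 call with RLE size factors (adjusted p = 0.0501). Over all alternatives the stimulated log2 fold ran from 0.35 to 0.90 and its adjusted p from 2.01e-06 to 0.108, and with library totals the folds were 0.90 in stimulated and 1.30 in GW4869 cultures.

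Gm26917, at the place of the 5′ external transcribed spacer, went the other way from 18S. It stood at 165.2, 192.3 and 207.3 CPM in stimulated EVs, against 4330, 3979 and 3703 CPM in stimulated cells, a log2 fold of -4.41 ± 0.20 (adjusted p = 4.83e-15, edgeR). The log2 fold of Gm26917 was -4.11 ± 0.20 in GW4869, -3.00 ± 0.19 in DMSO and -1.06 ± 0.18 in resting cultures, all called lower in EVs. Counts of Gm26917 per 100 counts of Rn18s-rs5 were 0.428 ± 0.0868 in GW4869 EVs, against 10.7 ± 0.581 in GW4869 cells (SD, n = 3), and 0.504, 0.507 and 0.488 in DMSO EVs, against 10.7, 10.4 and 12.1 in DMSO cells. They were 0.450 ± 0.0140 in stimulated EVs, against 13.2 ± 0.800 in stimulated cells, and 1.52 ± 0.116 in resting EVs, against 13.8 ± 2.34 in resting cells. The 12 EV libraries (0.329 to 1.65) all lay below the 12 cell libraries (up to 16.4).

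The 2 genes that overlap 18S moved with it and do not count as further evidence. Gm42418 took 59.2 to 65.9 counts per 100 of Rn18s-rs5 in EV libraries, against 52.2 to 61.4 in cell libraries. AY036118, which covers the middle and 3′ part of 18S, took 43.9 to 49.4 in EV libraries, against 29.6 to 42.5 in cell libraries, with no overlap. Whether strand was used in the counting is not given in the sources used here, so reads of AY036118 and of 18S cannot be told apart. Of the 8 rRNA-like loci in the files, 3, 4, 3 and 7 were called higher in EVs of GW4869, DMSO, stimulated and resting cultures. The numbers called lower were 4, 4, 4 and 1. Of all features 36.2%, 37.0%, 27.7% and 18.9% were called higher, and 32.0%, 28.4%, 25.8% and 15.4% lower. These 8 loci include Gm26917, Gm42418 and AY036118.

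The 5S features differed from 18S in the EVs of GW4869, DMSO and stimulated cultures. Of the 65 5S features, 63 were called lower and 0 higher in EVs against cells of GW4869 cultures, where 32.0% of all features were called lower and 36.2% higher. In DMSO cultures 60 were lower and 0 higher, with 28.4% of all features called lower and 37.0% higher. In stimulated cultures 59 were lower and 1, n-R5s193, higher, with 25.8% of all features called lower and 27.7% higher. The median 5S log2 fold was -1.24, -1.03 and -0.87 in these 3 cultures, beside 0.18, 0.29 and 0.07 over all features. All 3 EV libraries lay below all 3 cell libraries for 63 of the 65 in GW4869, 29 in DMSO and 61 in stimulated cultures, beside 32.8%, 27.4% and 31.3% of all features. Markers of other cell types were lower in some of the same EVs, Mir126a by a log2 fold of -1.46 in GW4869 and -1.06 in DMSO cultures and Mir200c by -0.67 and -1.13, all called, and their part in the result was not tested. The 32 identical copies cannot be separated by their reads, so these counts are not so many separate RNAs.

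Rn5s stands for the identical copies. It stood at 242.7, 231.6 and 213.4 CPM in GW4869 EVs, against 732.7, 475.5 and 405.7 CPM in GW4869 cells. It stood at 202.7, 196.9 and 254.1 CPM in stimulated EVs, against 332.1, 411.2 and 432.0 CPM in stimulated cells. Neither pair of groups overlapped. In DMSO cultures they did, at 207.0, 455.6 and 237.1 CPM in EVs, against 450.5, 750.6 and 616.7 CPM in cells, where EV replicate 2 was above the lowest cell library. The log2 fold of Rn5s was -1.23 ± 0.29 (adjusted p = 0.000652) in GW4869, -0.85 ± 0.29 (adjusted p = 0.0165) in stimulated and -1.02 ± 0.29 (adjusted p = 0.00367) in DMSO cultures by edgeR.

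These 5S calls depended on the scaling. With library totals in place of TMM factors, the median log2 fold of all features moved by 0.76, 0.44 and 0.59 in GW4869, stimulated and DMSO cultures, and 8, 1 and 3 5S features were called lower. The Rn5s log2 fold was then -0.48, -0.41 and -0.51, with adjusted p from 0.102 to 0.211. In stimulated cultures the Rn5s call was also lost without stimulated cells replicate 3 (adjusted p = 0.0544), stimulated EVs replicate 1 (adjusted p = 0.0564) or stimulated EVs replicate 2 (adjusted p = 0.0607, edgeR). The count in stimulated cultures also fell to 19 without stimulated EVs replicate 1, to 24 without stimulated EVs replicate 2 or stimulated cells replicate 3, and to 34 without stimulated cells replicate 2.

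In resting cultures 5S was not lower in EVs. Of the 65, 3 were called higher and 0 lower, with 18.9% of all features called higher and 15.4% lower, and the median 5S log2 fold was 0.58, beside 0.10 over all features. Rn5s stood at 171.5, 93.09 and 82.71 CPM in EVs, against 61.99, 85.38 and 104.7 CPM in cells. The groups overlapped, EV replicate 1 was the highest library, and the log2 fold of 0.46 ± 0.31 did not pass (adjusted p = 0.276). Leaving out 1 library gave 0 (resting EVs replicate 1) to 24 (resting EVs replicate 3) 5S features called higher, with 8 without resting EVs replicate 2 or resting cells replicate 3 and 1 without resting cells replicate 2. With library totals it was 27.

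**Figure D2:**
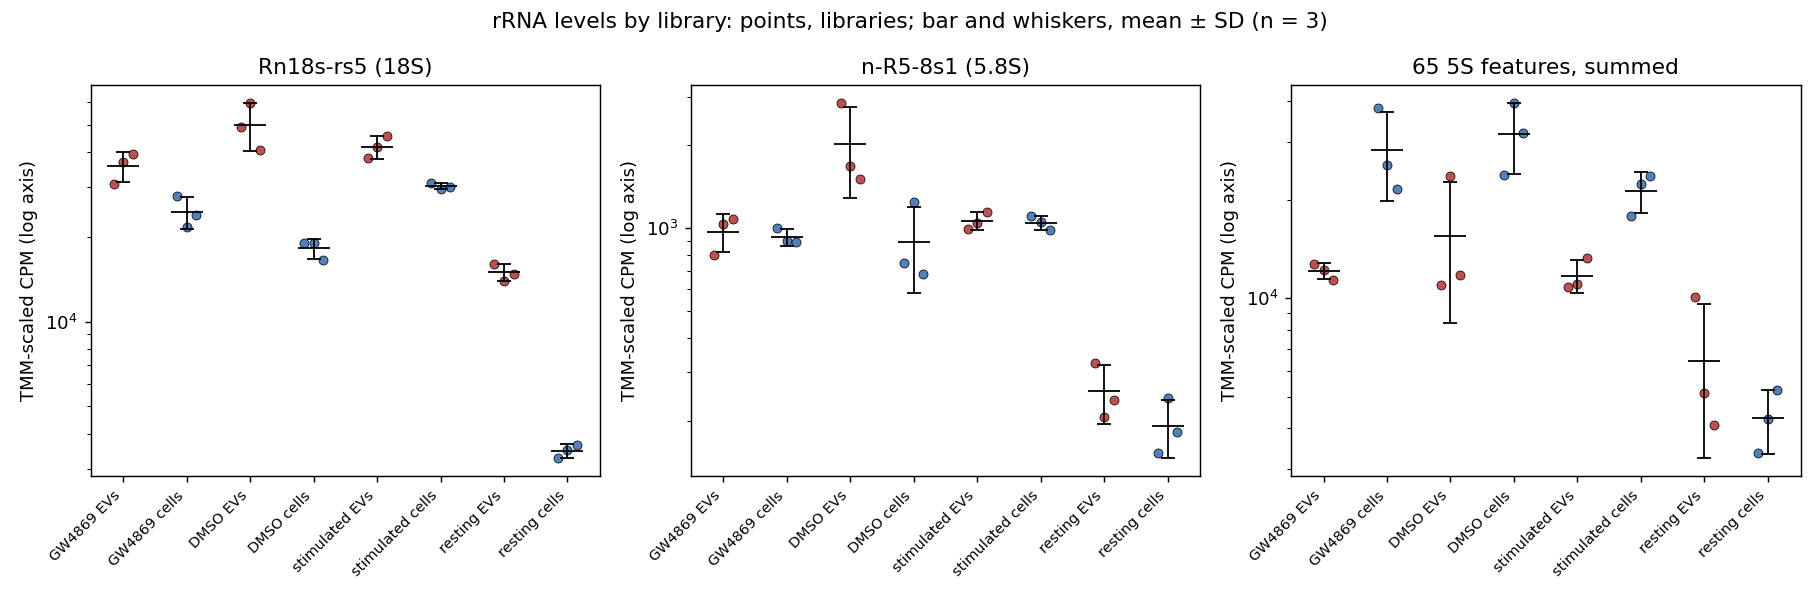
Levels of Rn18s-rs5, n-R5-8s1 and the 65 summed 5S features in each library, as TMM-scaled CPM on log axes. Points are libraries, and bars with whiskers are means ± SD (n = 3). Resting libraries are the lowest for n-R5-8s1, and Rn18s-rs5 averages 14940 CPM in resting EVs, against 3473 CPM in resting cells.

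The 2 5.8S features were n-R5-8s1 (148 bases) and Gm24601 (chr6:94826781-94826923, minus strand, 143 bases), which were 72.3% identical. Gm24601 fell outside the rule for named features and is named because its class has only these 2. Both were called higher in EVs of DMSO cultures and not called in the other 3. In DMSO cultures n-R5-8s1 stood at 2853, 1684 and 1507 CPM in EVs, against 745.2, 1241 and 681.7 CPM in cells. Gm24601 stood at 399.9, 142.1 and 166.7 CPM in DMSO EVs, against 66.01, 64.16 and 78.92 CPM in DMSO cells. DMSO EVs replicate 1 was the highest library of both, and the groups did not overlap. The log2 fold was 1.18 ± 0.24 (adjusted p = 0.000174) for n-R5-8s1 and 1.76 ± 0.29 (adjusted p = 1.32e-05) for Gm24601 by edgeR, and 0.84 and 1.15 without DMSO EVs replicate 1, still called. In the other cultures the folds ran from -0.40 to 0.42, and n-R5-8s1 in GW4869 cultures passed only with library totals (0.81, adjusted p = 0.00538).

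Every member was higher in stimulated than in resting cells. All 68 were called higher and 0 lower, with 23.0% of all features called higher and 23.1% lower, and the median 5S log2 fold was 2.31, beside -0.05 over all features. Rn18s-rs5 stood at 31150, 29660 and 30010 CPM in stimulated cells, against 3272, 3494 and 3655 CPM in resting cells, a log2 fold of 3.12 ± 0.18 (adjusted p = 2.18e-13). The 5.8S feature n-R5-8s1 stood at 1102, 1053 and 985.0 CPM in stimulated cells, against 152.1, 241.3 and 181.2 CPM in resting cells, a log2 fold of 2.45 ± 0.26 (adjusted p = 1.59e-08). Rn5s had a log2 fold of 2.22 ± 0.31 (adjusted p = 1.46e-06), and Gm26917 one of 3.07 ± 0.19 (adjusted p = 4.58e-13, edgeR). The groups did not overlap for any of the 65 5S features, and 28.7% of all features were higher with no overlap. The 5S log2 folds ran from 1.26 (n-R5s193) to 2.92 (n-R5s5).

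In EVs the same contrast was smaller. Of the 68 members, 61 were called higher in stimulated than in resting EVs and 0 lower, with 28.9% of all features called higher and 25.2% lower. Rn18s-rs5 stood at 37970, 41550 and 45720 CPM in stimulated EVs, against 16060, 13980 and 14770 CPM in resting EVs, a log2 fold of 1.48 ± 0.17 (adjusted p = 5.76e-08). The 5.8S feature n-R5-8s1 stood at 995.9, 1047 and 1147 CPM in stimulated EVs, against 324.8, 205.6 and 236.6 CPM in resting EVs, a log2 fold of 2.06 ± 0.25 (adjusted p = 1.68e-07). Of the 65 5S features 58 were called higher, with a median log2 fold of 0.89, beside 0.09 over all features. With library totals the median of all features moved by 1.12 in EVs and 0.82 in cells. The count of 58 was 8 without resting EVs replicate 3, 12 without resting EVs replicate 2, 28 without stimulated EVs replicate 3, 38 with RLE size factors and 36 with DESeq2.

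The test of the difference itself, the EV to cell ratio in stimulated against resting cultures, called 62 of 68 members lower and 0 higher, with 20.7% of all features called lower and 15.2% higher. For Rn18s-rs5 the log2 difference was -1.64 ± 0.24 (adjusted p = 6.26e-06) by edgeR. Of the 5S features 61 were lower, with a median of -1.46, beside -0.04 over all features. That count was 20 without resting EVs replicate 1, 39 without resting cells replicate 1 and 44 with library totals. Of the markers of other cell types, Mir451a was lower by this test (-2.56 ± 0.52, adjusted p = 0.000396), as was Mir126a (-0.81 ± 0.32, adjusted p = 0.0469), and in cells alone Mir451a was higher in stimulated than in resting ones (1.98 ± 0.39, adjusted p = 0.000125), all by edgeR. Their part in these results was not tested. For n-R5-8s1 the log2 difference was -0.39 ± 0.34 and did not pass (adjusted p = 0.396).

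GW4869 against DMSO changed few members. In EVs, 3 of 68 were called lower and 0 higher, with 9.69% of all features called lower and 7.89% higher. The 3 were the 18S and both 5.8S features. The 5.8S feature n-R5-8s1 stood at 796.2, 1032 and 1080 CPM in GW4869 EVs, against 2853, 1684 and 1507 CPM in DMSO EVs, a log2 fold of -1.06 ± 0.24 (adjusted p = 0.00527). Gm24601 stood at 61.01, 73.37 and 89.38 CPM in GW4869 EVs, against 399.9, 142.1 and 166.7 CPM in DMSO EVs, a log2 fold of -1.66 ± 0.29 (adjusted p = 0.000595). Neither pair overlapped. Without DMSO EVs replicate 1, the highest library, the folds were -0.72 and -1.05 and still passed by edgeR, and in a fit of the 6 EV libraries alone neither did (adjusted p = 0.177 and 0.147). That fit called 0 of all features, against 775 in the main fit.

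Rn18s-rs5 stood at 30840, 36770 and 39300 CPM in GW4869 EVs, against 49090, 59850 and 40720 CPM in DMSO EVs, a log2 fold of -0.49 ± 0.17 (adjusted p = 0.0447, edgeR). The groups lay close, with the highest GW4869 library just under the lowest DMSO library. The call was lost with RLE size factors (adjusted p = 0.0595), with library totals (-0.14, adjusted p = 0.447), in a fit of the EV libraries alone (adjusted p = 0.325) and with a replicate block (adjusted p = 0.0535). It was also lost without DMSO EVs replicate 2 (-0.33), GW4869 EVs replicate 1 (-0.28), GW4869 EVs replicate 2 (-0.38) or GW4869 EVs replicate 3 (-0.44). Of the 5S features 0 were called by edgeR, 1 had an unadjusted p under 0.05 and DESeq2 called 0, with a median log2 fold of -0.34, beside -0.07 over all features. Rn5s had -0.38 ± 0.29 (adjusted p = 0.354).

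In cells, GW4869 against DMSO called 0 of 68 members by edgeR, with 2.88% of all features called higher and 0.113% lower. At an unadjusted p under 0.05 there was 1, Rn18s-rs5, which stood at 27860, 21640 and 23820 CPM in GW4869 cells, against 19030, 19000 and 16510 CPM in DMSO cells. The groups did not overlap, and the log2 fold was 0.43 ± 0.17 (adjusted p = 0.227); with library totals it was 0.57 and passed (adjusted p = 0.00733). DESeq2 called 0 5S features lower. The EV to cell ratio in GW4869 against DMSO cultures was lower for 3 of 68 members and higher for 0, with 5.83% of all features called lower and 1.75% higher. The 3 were Rn18s-rs5 (log2 difference -0.91 ± 0.24, adjusted p = 0.0190), n-R5-8s1 (-1.12 ± 0.34, adjusted p = 0.0431) and Gm24601 (-2.02 ± 0.41, adjusted p = 0.00344). Rn18s-rs5 lost the call without GW4869 EVs replicate 1, 2 or 3 or DMSO cells replicate 3 (differences from -0.68 to -0.85) and in a fit of the 4 groups alone (-0.78, adjusted p = 0.208). n-R5-8s1 lost it with RLE size factors (adjusted p = 0.0667), library totals (adjusted p = 0.116), the replicate block (adjusted p = 0.0520) and most omissions, and in a fit of the 4 groups alone neither 5.8S feature passed (log2 difference -0.99 for n-R5-8s1, and adjusted p = 0.0718 for Gm24601). That fit of 4 groups called 45 of all features, against 334 in the main fit.

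**Figure D3:**
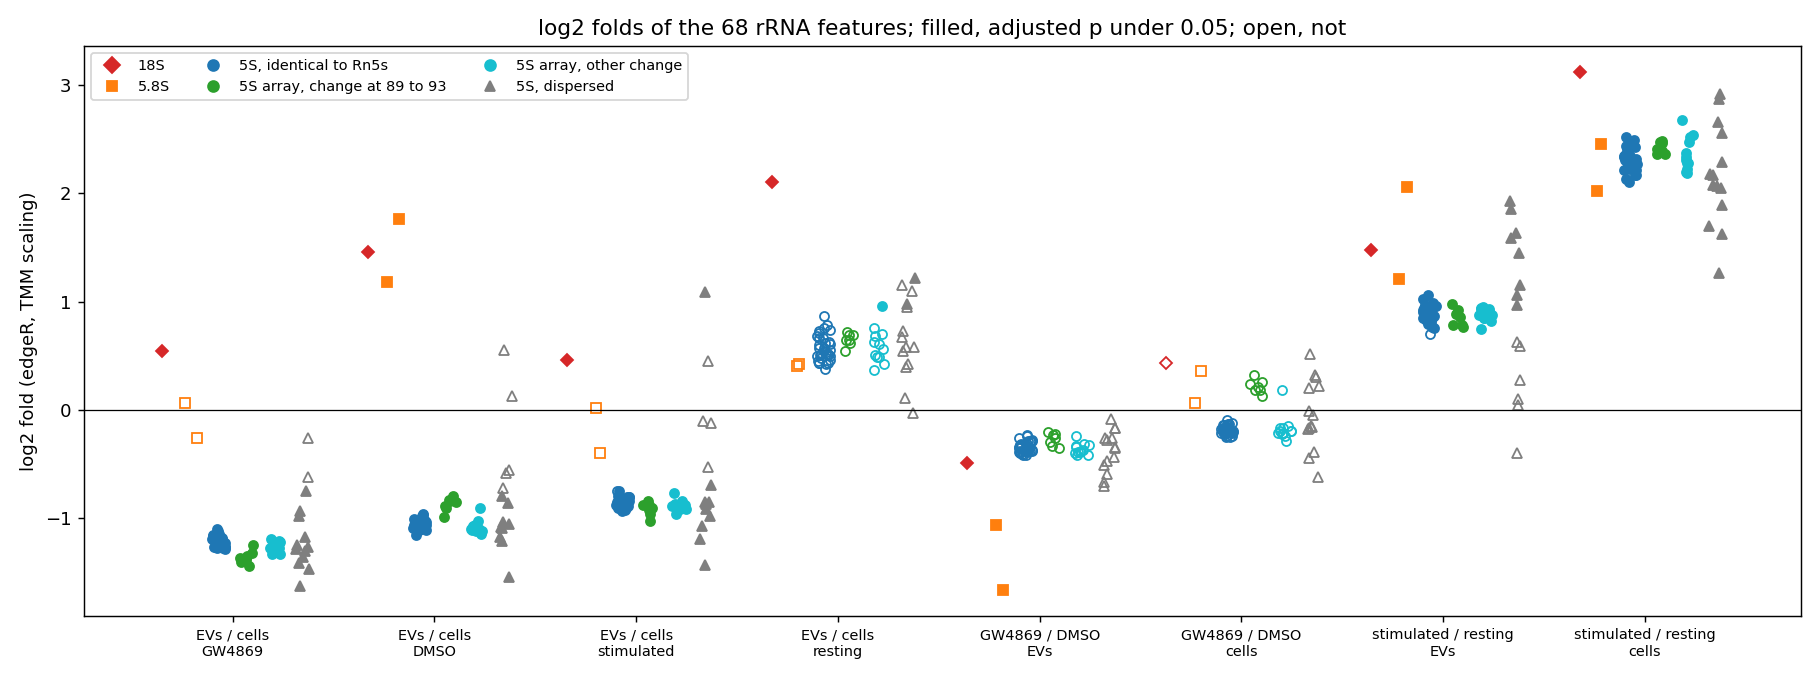
log2 folds of the 68 rRNA features in 8 comparisons, by class; filled symbols passed an adjusted p of 0.05 and open ones did not. 18S (diamonds) lies above all 5S features in the comparisons of EVs with cells in GW4869, DMSO and resting cultures, and in stimulated cultures above all but n-R5s193 (1.09 against 0.46 for 18S), and all 68 features are filled and positive for stimulated against resting cells.

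DMSO against stimulated cultures compares vehicle with no vehicle across what may be 2 separate tables of the authors. Levels may therefore also differ by how each table was made, and this cannot be told apart. In EVs 6 of 68 members were higher and 0 lower, with 13.6% of all features called higher and 9.91% lower. They were both 5.8S features and 4 dispersed 5S copies, n-R5s2, n-R5s33, n-R5s185 and n-R5s194. The log2 fold was 0.92 ± 0.24 for n-R5-8s1 (adjusted p = 0.00704), lost without DMSO EVs replicate 1 (0.59, adjusted p = 0.0862), and 1.47 ± 0.35 for n-R5s33 (adjusted p = 0.00392, edgeR). In cells 3 were higher (n-R5s2, n-R5s33 and n-R5s185) and 1 lower, Rn18s-rs5, with 11.9% of all features called higher and 17.2% lower. Rn18s-rs5 stood at 19030, 19000 and 16510 CPM in DMSO cells, against 31150, 29660 and 30010 CPM in stimulated cells, a log2 fold of -0.74 ± 0.17 (adjusted p = 0.00159). The groups were far apart. The count of 3 5S features in cells was 22 with RLE size factors, 23 with DESeq2, 47 in a fit of these groups alone and 9 without DMSO cells replicate 1, and the 4 in EVs were 2 in such a fit and without stimulated EVs replicate 1, stimulated EVs replicate 2 or DMSO EVs replicate 2.

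The identical 5S copies had nearly equal counts. Among the 32 identical copies, the variance of the counts in a library over their mean was 0.666 to 1.53 (median 0.981), where random counting gives 1, so their counts differed by about counting noise. Copies with changed bases differed from them to unequal degrees. A copy's count is given below relative to the mean of the identical copies in the same library, as a description with no test.

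The 7 array copies with G89T, A90T and G93C were lower than the identical copies in every library. Their mean was 0.613, 0.593 and 0.595 in GW4869 EVs, against 0.615, 0.736 and 0.676 in GW4869 cells, and 0.596, 0.545 and 0.605 in DMSO EVs, against 0.620, 0.411 and 0.540 in DMSO cells. It was 0.855, 0.851 and 0.870 in stimulated EVs, against 0.879, 0.898 and 0.910 in stimulated cells, and 0.901, 0.868 and 0.828 in resting EVs, against 0.900, 0.790 and 0.812 in resting cells. The 12 DMSO and GW4869 libraries (0.411 to 0.736) did not overlap the 12 resting and stimulated libraries (0.790 to 0.910). Both sets may have been tabulated separately, which the labels do not state, and the part of this in the difference was not tested. 

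The 12 array copies with other changes had group medians of 0.937 to 0.992. Among them n-R5s115, with C3A and G86A, averaged 0.922 to 1.01 in the 8 groups, and Gm23647, which lacks 10 bases of Rn5s, averaged 0.910 to 0.989. n-R5s109, with C39T, C44T and G99A, was the lowest of the 12 in every group, at 0.494 to 0.743 in the 4 EV groups, against 0.454 to 0.710 in the 4 cell groups. The dispersed copy n-R5s193, which is shorter than Rn5s and differs from Rn5s at its 3′ end (C94T, A101C and others), was lower still, at 0.104 ± 0.0105 in GW4869 EVs, against 0.0525 ± 0.0134 in GW4869 cells (SD, n = 3). In stimulated cultures n-R5s193 stood at 0.149 ± 0.0133 in EVs, against 0.0398 ± 0.0114 in cells, and its level was 31.75, 32.48 and 33.03 CPM in EVs, against 16.73, 16.91 and 12.22 CPM in cells. It was the 5S feature called higher there, with a log2 fold of 1.09 ± 0.32 (adjusted p = 0.00647, edgeR).

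The dispersed copies varied most. Their group means relative to the identical copies ran from 0.0271 to 1.46. The highest was n-R5s2, which differs from Rn5s at G27A, G47A, C52T and G64C, at 1.33, 1.27 and 1.36 in GW4869 EVs, against 1.17, 0.962 and 1.08 in GW4869 cells, and at 1.33, 1.38 and 1.18 in DMSO EVs, against 1.40, 1.53 and 1.45 in DMSO cells. It was 0.789, 0.834 and 0.999 in stimulated EVs, against 0.746, 0.843 and 1.02 in stimulated cells. It was 0.678, 0.961 and 0.795 in resting EVs, against 1.07, 1.20 and 1.23 in resting cells. The DMSO libraries were above all stimulated ones, and resting cells lay above resting EVs. n-R5s71, with 6 edits, had the lowest EV to cell fold in GW4869, DMSO and stimulated cultures, with log2 folds of -1.62, -1.54 and -1.43, all called by edgeR. n-R5s5, with 11 edits, was among the 3 called higher in resting EVs, at 23.71, 11.11 and 10.99 CPM in EVs, against 6.613, 4.700 and 7.916 CPM in cells, a log2 fold of 1.22 ± 0.38 (adjusted p = 0.0140). The call was lost without resting EVs replicate 1 (0.79, adjusted p = 0.137) or resting cells replicate 2 (1.04, adjusted p = 0.0749, edgeR).

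**Figure D4:**
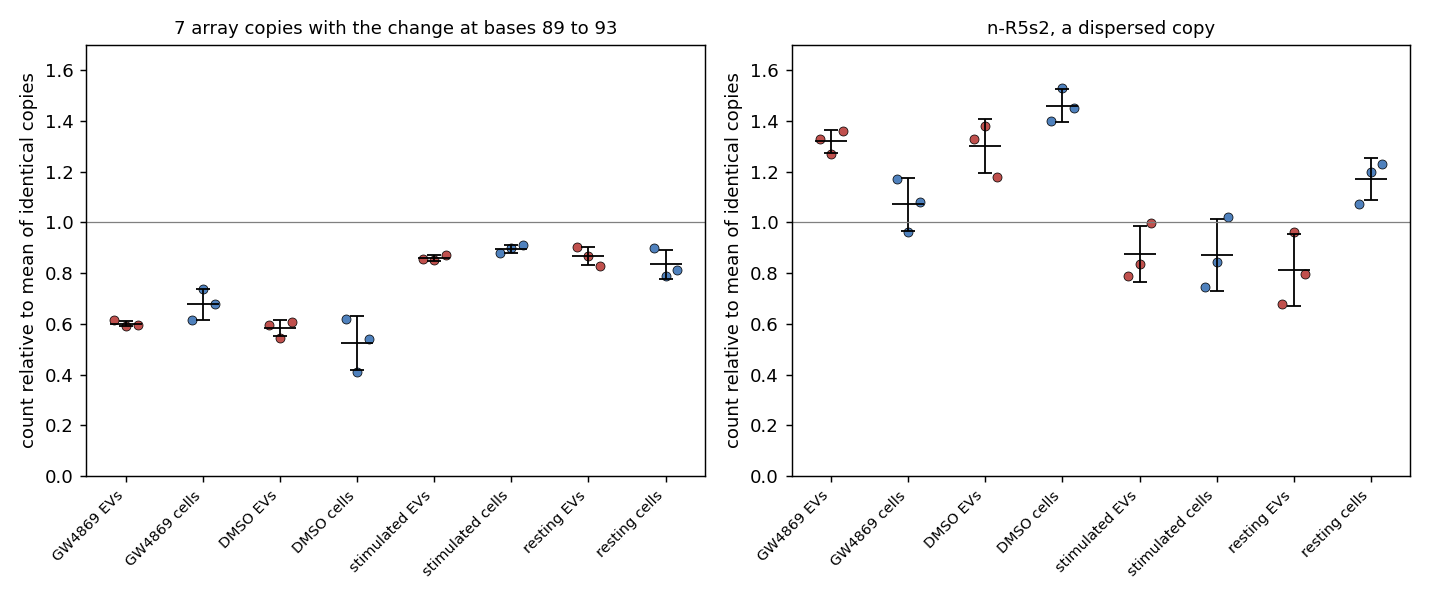
Counts of the 7 array copies with the change at bases 89 to 93 (left, mean) and of n-R5s2 (right) relative to the mean of the 32 identical 5S copies in the same library. Points are libraries, and bars with whiskers are means ± SD (n = 3). The DMSO and GW4869 libraries are at 0.411 to 0.736 on the left, and the resting and stimulated ones at 0.790 to 0.910.

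Most features of ribosomal protein genes, RNAs of rRNA processing and mitochondrial rRNA were lower in EVs of GW4869, DMSO and stimulated cultures. Of 31 ribosomal protein genes, whose counts here are small fragments mapped inside the genes, 30 were lower in GW4869, 28 in DMSO, 28 in stimulated and 15 in resting EVs against cells, and 0, 0, 0 and 4 were higher, with median log2 folds of -2.74, -2.30, -2.39 and -0.68. Of all features 32.0%, 28.4%, 25.8% and 15.4% were called lower in these cultures, and 36.2%, 37.0%, 27.7% and 18.9% higher. Rpl5, which binds 5S rRNA, was the 1 of 9 genes of 5S partners in the files, and its log2 fold was -2.66 in GW4869, -2.08 in DMSO, -2.27 in stimulated and -0.96 in resting cultures, all called lower. Of 12 RNAs of rRNA processing, 11, 11, 10 and 10 were lower in the same order of cultures, and 0, 1, 1 and 2 were higher. Those higher were Rpph1, the RNA of RNase P, in DMSO (log2 fold 0.69), stimulated (0.60) and resting cultures (1.51), and Rmrp, the RNA of RNase MRP, in resting cultures (0.92). The mitochondrial rRNAs mt-Rnr1 and mt-Rnr2 were both lower in EVs of GW4869, DMSO and stimulated cultures, with log2 folds from -5.24 to -3.37. In resting cultures mt-Rnr2 was lower (-1.11, adjusted p = 1.40e-06, edgeR) and mt-Rnr1 did not pass (0.11, adjusted p = 0.690).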

How the data were processed

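The data were small RNA libraries in 8 groups of 3. Per the file headers, each deposited file held 1 whole-number read count per feature, and no value in them was under 4. The submitters' processing notes name Bowtie and the builds mm10 and GRCm38. The sources used here give neither its settings nor the counting tool, how reads with several alignments were handled, the use of strand or the interval counted for Rn18s-rs5. Of 4441 lines, 33 repeats were dropped, leaving 4408 features.

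Members were read from 1 edgeR 4.0.16 model (R 4.3.3) over all 24 libraries and 8 groups, with TMM scaling, filterByExpr (minimum count 10, 0 features removed) and Benjamini-Hochberg adjustment over all 4408 features. Levels are CPM computed from the deposited counts. The script was tested on simulated data for resting EVs against cells, where it recovered 83% of log2 changes of 2 and 37% of log2 changes of 1 among 200 changed of 4408 features. All other simulated features had the same mean in every group, so the simulation could not test the scaling between unlike groups. Alternatives were RLE factors, library totals, scaling without the members, no filter, a replicate block, the compared groups alone, DESeq2 1.42.0 and leaving out each library. No members had equal counts in all libraries, so counting equal lines once changed nothing.

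Coordinates and sequences came from GENCODE M21 (GRCm38, counted from 1), which named 67 of the 68 members. RefSeq GRCm38.p6 named Rn18s-rs5. Named features were Rn18s-rs5, the 8 most abundant members outside the n-R5s names, the 6 most abundant n-R5s copies, and the 2 highest and 2 lowest n-R5s folds of each comparison. Members, lists and this rule were chosen with earlier results of these data known. The 6 most abundant n-R5s copies were n-R5s2 (mean 365 CPM) and 5 identical copies (315 to 316 CPM). The sequences of the 5S copies are not reported here. Figures were drawn with matplotlib.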

Additional observations from a re-analysis of the deposited data

Results flagged for a closer look

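The results below differed between pairs of cultures by the interaction test of edgeR, which compares the EV to cell ratio of stimulated with resting cultures, or of GW4869 with DMSO cultures. Groups of 3 libraries were too small to look for single outlying libraries by a formal rule.

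Between stimulated and resting cultures, Rn18s-rs5 differed by -1.64 on the log2 scale (adjusted p = 6.26e-06), n-R5s197 by -2.02 (adjusted p = 0.00816) and n-R5s71 by -2.0 (adjusted p = 0.00250). Of the 65 5S features, 61 were lower for this difference, where 20.7% of all features were lower and 15.2% higher, and leaving out 1 library gave 20 to 61. The copies n-R5s197 and n-R5s71 are named because they had the lowest n-R5s folds of this comparison. The lowest member count, 4 in a library, was that of n-R5s197. Its level was 10.97 ± 8.42 CPM (SD) in resting EVs, against 4.668 ± 1.13 CPM in resting cells, and these groups overlapped.

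Between GW4869 and DMSO cultures, Rn18s-rs5 differed by -0.91 (adjusted p = 0.0190), n-R5-8s1 by -1.12 (adjusted p = 0.0431) and Gm24601 by -2.02 (adjusted p = 0.00344). Without DMSO EVs replicate 1, the highest 5.8S library, Gm24601 differed by -1.41 (adjusted p = 0.00774) and n-R5-8s1 by -0.78 (adjusted p = 0.103). These were 3 of 68 members, where 5.83% of all features were lower and 1.75% higher. In an edgeR fit of the compared groups alone, Rn18s-rs5 (adjusted p = 0.208) and both 5.8S features lost the call. That fit called 45 of all features, against 334 in the main fit. Rn18s-rs5 also lost the call on leaving out each GW4869 EV library in turn.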

How the results depend on the processing

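The 5S counts depended on scaling and on single libraries. With library totals they were 27 higher in resting EVs against cells, and 1, 3 and 8 lower in stimulated, DMSO and GW4869 EVs. With RLE size factors they were 38 higher for stimulated against resting EVs and 22 higher for DMSO against stimulated cells, and with DESeq2 36 and 23. In fits of the compared groups alone, DMSO against stimulated gave 2 higher in EVs and 47 in cells. Leaving out 1 library gave 0 to 24 higher in resting EVs against cells, 19 to 59 lower in stimulated, 51 to 63 in DMSO and 61 to 64 in GW4869 EVs. It gave 8 to 62 higher for stimulated against resting EVs and 64 to 65 in cells, 2 to 4 higher for DMSO against stimulated EVs and 3 to 9 in cells, and 20 to 61 lower for the EV to cell ratio of stimulated against resting cultures. Under the replicate block the 5S counts were 3, 59, 60 and 63 for EVs against cells in resting, stimulated, DMSO and GW4869 cultures. In deviations from their group means, same-numbered libraries had r from -0.37 to 0.33, and in no comparison were all pairs above 0.1. The best match carried the same number for 0 to 2 of 3 libraries. Such a check cannot decide whether same-numbered libraries came from the same culture.

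The share of counts in rRNA members, EVs minus cells, became 1.61, 5.22, 13.0 and 12.3 percentage points in resting, stimulated, DMSO and GW4869 cultures when protein-coding and long non-coding genes were left out of the total. It ranged from 0.748 to 1.03, 1.87 to 2.49, 3.92 to 4.66 and 2.33 to 3.56 without 1 library. The log2 ratio of Rn18s-rs5 to 5S, EVs minus cells, ranged from 1.34 to 1.93, 1.23 to 1.46, 2.34 to 2.77 and 1.60 to 1.89 without 1 library, and was 2.15, 1.30, 2.72 and 1.41 with n-R5s2 alone as the 5S count.

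Under library totals 2 log2 folds turned: n-R5s5 in GW4869 EVs against cells to 0 (adjusted p = 0.999), and Gm26917 in stimulated against resting EVs to 0.84 (adjusted p = 3.09e-05), against -0.27 (adjusted p = 0.194) with TMM. The causes were not tested.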
